A study of Mus musculus with 28 samples.

Results

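Presynaptic vesicle and release machinery genes are described here as a list of 36 mouse genes, chosen by symbol and matched to the Ensembl identifiers of the deposited tables. Each of the 36 matched a single identifier among the 55414 genes listed, and all 36 were among the 12423 genes that passed the filter on low counts, so the filter left out no member. Their expected counts ran from 28 for Stx1a in its poorest library to 8061 for Syt1 in its richest. The measurements come from QuantSeq, a 3′ tag method that reads each polyadenylated transcript near its end, applied to total RNA of whole mouse brain.

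Feeding the copper chelator cuprizone kills oligodendrocytes and strips myelin, which is rebuilt once the agent is withdrawn. There were 28 libraries in 4 groups of 7. The naive group (coded CPZ0), the demyelination group at the peak of myelin loss (CPZ5) and the remyelination group (CPZ6+1) were TNFR1ff animals, which carry a floxed TNFR1 gene without the deletion and were backcrossed onto C57BL/6. The knockout group, mgTNFR1KO, was taken at the same remyelination stage (CPZ6+1), carried Cx3cr1-CreER together with Tnfr1ff, and received tamoxifen in a therapeutic schedule that deletes TNFR1 in microglia. The floxed allele is thus shared by all 4 groups, whereas the Cre driver and tamoxifen are named for the knockout group only, so the deletion, the driver and the drug cannot be told apart. The sources used here give no age or sex and speak of 7 samples per group rather than of separate animals, so p-values measure the spread between these samples.

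Neurons pack transmitter into synaptic vesicles, hold the vesicles at the active zone, and release them within a fraction of a millisecond of calcium entry. A vesicle SNARE protein and membrane SNARE proteins zip together to drive fusion, complexin clamps and assists them, synaptotagmin senses the calcium, and RIM, Munc13, Bassoon and Piccolo form the scaffold that readies vesicles. NSF and SNAP proteins then take the spent SNARE complex apart, and dynamin with amphiphysins retrieves the membrane. In the cuprizone model the primary lesion is in oligodendrocytes, and the presynaptic genes, which are expressed mainly by neurons, are read here from the same tissue RNA.

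The 250 bases before the transcription start are shown for 4 members, because 3 of them (Syn1, Cplx1 and Stx1a) varied together from library to library and the other one (Rab3c) varied against several others, as described further on. They were picked after those values were seen, and nothing was tested on them. The sequences are from RefSeq on GRCm38.p6 and read 5′ to 3′ on the gene's strand. Capitals mark exact matches on either strand of any of 4 motifs: GGGCGG (the GC box), TGACGTCA (the cAMP response element), TATAAA (the TATA box) and TTCAGCACC (the left part of RE1, the element bound by the neuronal repressor REST).
Syn1, chrX:20920919-20921168, strand minus: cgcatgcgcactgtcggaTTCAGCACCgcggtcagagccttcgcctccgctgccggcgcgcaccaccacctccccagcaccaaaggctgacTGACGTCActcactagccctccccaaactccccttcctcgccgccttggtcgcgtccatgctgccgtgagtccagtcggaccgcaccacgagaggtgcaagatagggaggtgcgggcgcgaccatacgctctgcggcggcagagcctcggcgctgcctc
Cplx1, chr5:108550028-108550277, strand minus: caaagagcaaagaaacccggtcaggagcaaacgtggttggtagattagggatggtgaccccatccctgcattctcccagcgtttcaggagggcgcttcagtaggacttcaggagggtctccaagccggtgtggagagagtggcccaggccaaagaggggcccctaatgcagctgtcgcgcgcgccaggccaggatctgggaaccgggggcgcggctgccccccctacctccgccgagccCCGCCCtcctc
Stx1a, chr5:135023232-135023481, strand plus: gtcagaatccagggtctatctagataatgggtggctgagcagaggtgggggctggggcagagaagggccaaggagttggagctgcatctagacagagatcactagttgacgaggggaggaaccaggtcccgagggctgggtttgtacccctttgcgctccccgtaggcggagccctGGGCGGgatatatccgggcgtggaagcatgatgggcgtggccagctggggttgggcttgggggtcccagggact
Rab3c, chr13:110280207-110280456, strand minus: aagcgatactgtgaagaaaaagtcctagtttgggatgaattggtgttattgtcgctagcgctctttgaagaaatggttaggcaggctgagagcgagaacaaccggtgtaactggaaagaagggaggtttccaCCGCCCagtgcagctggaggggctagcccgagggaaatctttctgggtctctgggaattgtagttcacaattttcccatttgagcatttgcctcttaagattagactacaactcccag

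The Syn1 window held a TTCAGCACC and a TGACGTCA match, and those of Cplx1, Stx1a and Rab3c held 1 GC box each. The RefSeq table held a start for 28 of the 36 genes. A GC box lay in the window of 19 of these 28, against 35.4% of 27025 genes in windows of the same length, and TATAAA lay in 1 (Sv2b), against 14.3% of genes. Syn1 was the member with TTCAGCACC, found in 0.348% of genes, and also the member with TGACGTCA, found in 1.77%. Taking the most GC-rich window of each gene, the median GC content was 61.2% over the members and 52.8% over all genes. These matches describe letters in a window and not sites in use.

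Library totals ran from 1522919 to 3137252 expected counts, with group medians between 1973614 and 2045208, and 3 counts corresponded to 0.956 to 1.97 counts per 1000000 (CPM). Levels are given as CPM after TMM scaling, in which 3′ tag counts do not grow with transcript length, and that floor covers counting error only. The most abundant gene, listed as ENSMUSG00000119584.1 without a symbol, took between 1.33% (knockout library 1) and 25.5% (naive library 1) of the counts, and mitochondrial transcripts took between 3.93 and 9.14%, the highest share again in knockout library 1. The targeted gene Tnfrsf1a stood at 13.4 ± 3.07 CPM in naive, 27.3 ± 4.89 in demyelination, 23.2 ± 4.47 in remyelination and 22.1 ± 4.22 in knockout libraries. The last pair did not differ beyond its spread (log2 fold change -0.05, SE 0.17, edgeR adjusted p = 0.961), in a tissue where microglia are few and where the 3′ tag need not lie in the deleted part, so it does not check the labels. Lists of other cell types behaved by stage: of 20 mature oligodendrocyte genes, 16 fell and 1 (Trf) rose in demyelination against naive and 12 rose in remyelination against demyelination, and of 13 microglia genes, 10 rose in demyelination against naive, 8 in remyelination against naive, and 1 fell in knockout against control. That gene was Cx3cr1 (-0.89, SE 0.18, edgeR adjusted p = 0.0365), the gene from which the knockout group's Cre driver takes its name. Of 10 astrocyte genes, 3 rose in demyelination (Gfap, Vim and Clu) and 2 in remyelination (Gfap and Vim), each against naive, and 1 (Vim) fell in remyelination against demyelination. In the 20 general neuronal genes none passed in any comparison.

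No member of the presynaptic list passed the test in any of the 4 comparisons. In demyelination against naive, 0 of 36 members passed the edgeR quasi-likelihood test at an adjusted p of 0.05, where 2.0% of all genes did. The share of all genes called was 0.628% in remyelination against naive, 0.386% in remyelination against demyelination and 0.0483% in knockout against control in remyelination, again with 0 members in each. Read against such shares, a count of 0 of 36 does not set the list apart from other genes. DESeq2 also called 0 members in each comparison.

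At an unadjusted p under 0.05 in edgeR, 3 members stood out in demyelination against naive (Bsn higher, Slc17a6 and Rab3c lower), against 13.3% of all genes. There were 6 in remyelination against naive (Syt5 and Vamp2 higher, Snap25, Slc17a6, Syt4 and Rims1 lower), against 10.4%, and 4 in remyelination against demyelination (Syp, Slc17a7 and Syt5 higher, Snap25 lower), against 6.65%. In knockout against control there were 2 (Vamp1 higher, Rims2 lower), against 7.49%. DESeq2 gave 3, 6, 5 and 3 members at that level in the same order. Each comparison shares a group of libraries with another, so these counts are not independent of each other.

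**Figure D1:**
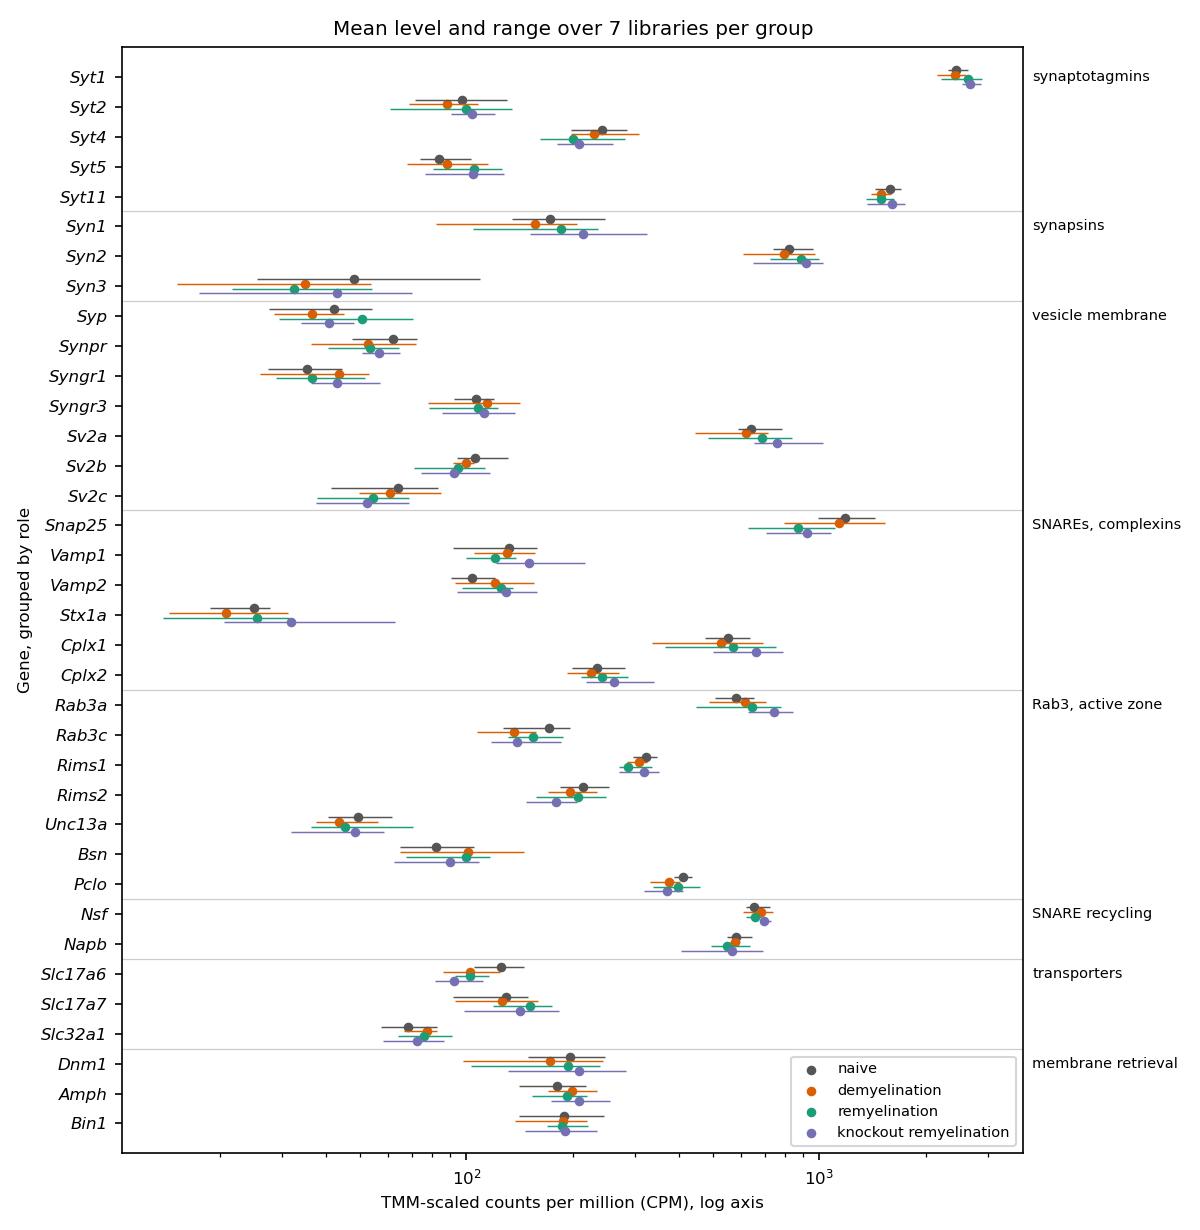
Mean level (point) and range over 7 libraries (line) of each of the 36 genes in the 4 groups, in TMM-scaled CPM on a log axis, with genes ordered by role. Levels span from 25.8 CPM (Stx1a) to 2539 CPM (Syt1) as means over 28 libraries, and the ranges of the groups set against each other in the 4 comparisons overlap for all genes except Nsf in knockout against control.

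The 95% interval of the log2 fold change lay within a 1.5-fold change either way for 32 of 36 members in demyelination against naive, 32 in remyelination against naive, 31 in remyelination against demyelination and 33 in knockout against control. Over all genes tested the same held for 50.9, 52.6, 56.0 and 55.4%. The members are well-counted genes, and the typical interval reached about 0.24 on the log2 scale to either side in demyelination against naive. Their median log2 fold change was -0.06, 0.01, 0.03 and 0.06 in the same order of comparisons, beside -0.01, 0.00, 0.00 and 0.00 over all genes. The most extreme estimates were -0.44 (Syn3) and 0.30 (Bsn) in demyelination, -0.55 (Syn3) and 0.33 (Syt5) in remyelination against naive, -0.38 (Snap25) and 0.47 (Syp) in remyelination against demyelination, and -0.30 (Syp) and 0.43 (Syn3) in knockout against control.

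**Figure D2:**
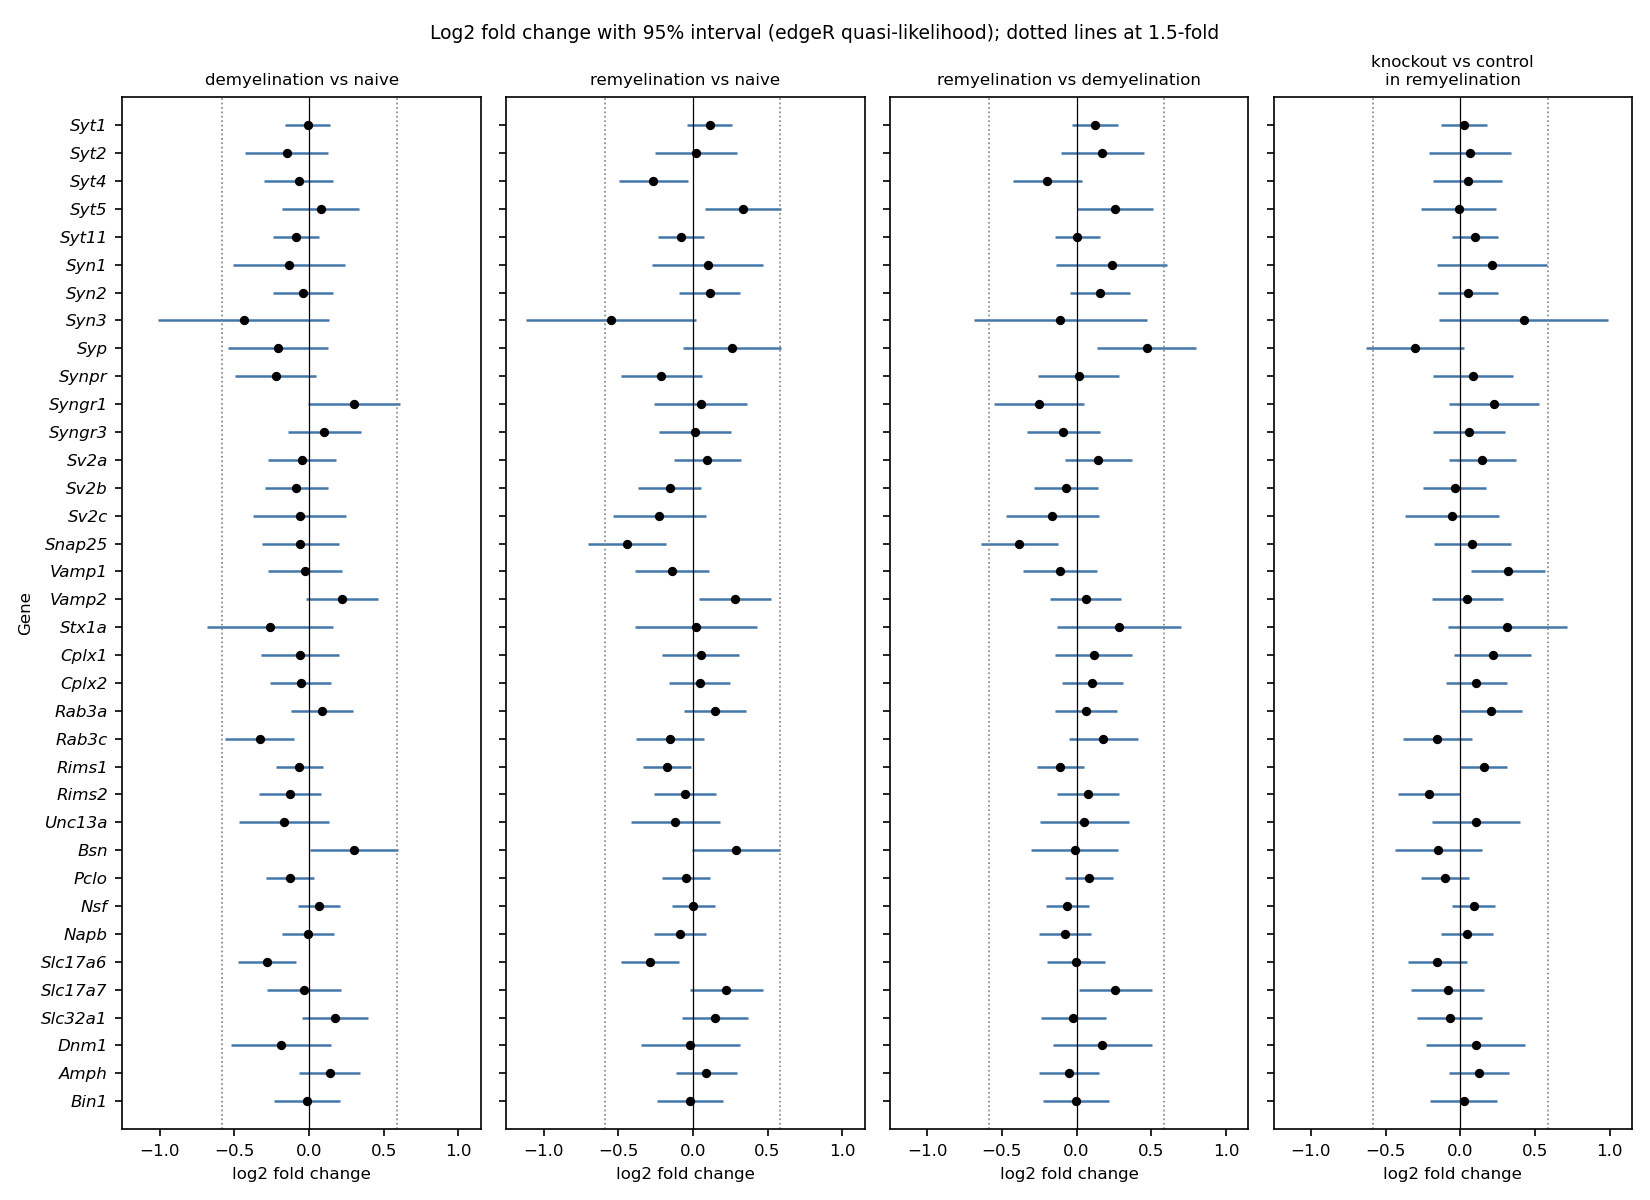
Log2 fold change (point) with its 95% interval (line) from edgeR for each of the 36 genes in the 4 comparisons; dotted lines mark a 1.5-fold change either way. Most intervals lie between the dotted lines (31 to 33 of 36 genes), and the widest belong to Syn3 and Stx1a, which have few counts.

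The summed level of the 36 genes was 12721 ± 596 CPM in naive, 12394 ± 819.6 in demyelination, 12618 ± 835 in remyelination and 13249 ± 579 in knockout libraries (SD, n = 7). The group means lay within 1 SD of each other for the 3 control stages. In the same libraries the summed level of 20 oligodendrocyte genes was 7443 ± 409 in naive, 3569 ± 367 in demyelination, 6708 ± 607 in remyelination and 7321 ± 463 in knockout libraries. In whole-brain RNA, fewer cells of a type and less RNA per cell cannot be told apart.

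Among the synaptotagmins, the calcium sensors of release, Syt1 was the most abundant member of the list. Syt1, which triggers fast synchronous release in forebrain neurons, had a lowest, median and highest level of 2321, 2351 and 2644 CPM in naive, 2155, 2420.1 and 2604 in demyelination, 2219, 2592 and 2893 in remyelination and 2534, 2680.1 and 2869 in knockout libraries. The 4 ranges overlapped, and the largest estimate, 0.12 (SE 0.08) in remyelination against demyelination, had an edgeR adjusted p of 0.857. Syt2, its fast counterpart in hindbrain and spinal neurons, had 71.6, 96.0 and 130.4 CPM in naive, 68.8, 89.8 and 108 in demyelination, 60.9, 104 and 135 in remyelination and 90.7, 105 and 121 in knockout libraries. Its estimates stayed between -0.15 and 0.17 in the 4 comparisons.

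Syt5, a less studied vesicle synaptotagmin, had means of 83.7 ± 10.1 CPM in naive and 88.3 ± 17.5 in demyelination, beside 105 ± 19.0 in remyelination and 104 ± 16.7 in knockout libraries. Its range was 73.7 to 103 in naive and 80.2 to 126 in remyelination, with 6 of 7 remyelination libraries above the naive median of 82.4, and the estimate of 0.33 (SE 0.13) had an edgeR adjusted p of 0.278. Syt4, an activity-regulated form that does not bind calcium in the usual way, stood at 242 ± 27.5 in naive and 201 ± 41.8 in remyelination libraries, an estimate of -0.27 (SE 0.11, adjusted p = 0.367). Syt11, also without calcium binding, was the next most abundant member after Syt1, at 1585 ± 107 in naive and 1493 ± 57.0 in demyelination libraries, and its estimates lay between -0.09 and 0.10.

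The synapsins tether vesicles to each other in the reserve pool. Syn2 carried most of the synapsin tags, with 739.8, 772 and 957 CPM as lowest, median and highest in naive, 609.7, 799.9 and 974 in demyelination, 724, 890.4 and 998 in remyelination, and 648, 956 and 1026 in knockout libraries. Groups overlapped throughout, and its estimates were between -0.04 and 0.16. Syn1 had group means between 157 and 214 CPM with a coefficient of variation of 25.9 to 31.8% within groups, much wider than that of Syn2 (10.4 to 14.7%).

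Syn3, the synapsin of developing and adult-born neurons, had a wide spread between libraries. Its levels were 25.4, 37.4 and 109 CPM (lowest, median, highest) in naive, 15.2, 38.9 and 53.5 in demyelination, 21.7, 27.5 and 53.9 in remyelination and 17.4, 43.3 and 69.9 in knockout libraries. The naive maximum belongs to library 1, and without that library the estimate in demyelination moved from -0.44 (SE 0.28) to -0.13, and in remyelination from -0.55 (SE 0.28) to -0.24, all against naive. None of its 4 tests passed (edgeR adjusted p between 0.503 and 0.983). Timp3 lies inside Syn3 on the opposite strand, and the strand setting of the counting is unknown here. Whether reads of this pair of genes were mixed in the counts was not tested.

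Of the vesicle membrane proteins, Sv2a, the vesicle glycoprotein bound by the antiepileptic levetiracetam, was the most abundant. It had 587, 605 and 782 CPM (lowest, median, highest) in naive, 445, 660.1 and 718 in demyelination, 483, 697 and 834 in remyelination and 652, 693 and 1023 in knockout libraries. These ranges overlap, with the top value in knockout library 6, and the estimates ran from -0.05 to 0.15. Its relatives Sv2b and Sv2c, which serve more restricted sets of neurons, had group means of 92.5 to 106 and 52.2 to 63.8 CPM.

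Syp encodes synaptophysin, the most widely used protein marker of synaptic vesicles, and its transcript gave few tags here. Syp levels were 27.5, 42.0 and 54.1 CPM in naive, 28.4, 38.0 and 45.0 in demyelination, 29.4, 50.3 and 70.4 in remyelination and 33.9, 42.3 and 48.0 in knockout libraries (lowest, median, highest). The remyelination group had the highest median and maximum, with 6 of 7 libraries above the demyelination median, and the ranges of all groups overlapped. The estimate in remyelination against demyelination was 0.47 (SE 0.16, edgeR adjusted p = 0.413), and in knockout against control, where all 7 knockout libraries lay below the control median, -0.30 (SE 0.16, adjusted p = 0.678). Synpr, Syngr1 and Syngr3, tetraspan relatives of synaptophysin, had group means of 52.8 to 61.9, 35.4 to 43.6 and 107 to 114 CPM, and 0 of these 3 had an unadjusted p under 0.05 in any comparison.

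Among the SNARE proteins and complexins, Snap25, the membrane SNARE cleaved by botulinum toxin A, came nearest to a call. Its levels were 994, 1177 and 1443 CPM (lowest, median, highest) in naive, 795, 1163 and 1531 in demyelination, 629.9, 878 and 1109.6 in remyelination and 708, 930.1 and 1077 in knockout libraries. All 7 remyelination libraries lay below the naive median and below the demyelination median, though the ranges overlapped. The mean was 1182 ± 156 in naive, 869.5 ± 216 in remyelination and 921 ± 113 in knockout libraries. The estimate in remyelination against naive was -0.44 (SE 0.13, edgeR adjusted p = 0.107) and in remyelination against demyelination, which uses the same remyelination libraries, -0.38 (SE 0.13, adjusted p = 0.376). The first passed in 4 of 22 alternative analyses, among them the one without remyelination library 1 (-0.52, adjusted p = 0.0307), and the adjusted p ranged from 0.0275 to 0.259 over all 22. In knockout against control the estimate was 0.08 (SE 0.13, adjusted p = 0.916).

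Vamp2 and Vamp1, the vesicle SNAREs of forebrain and of hindbrain and motor circuits, had similar levels. Vamp1 had 91.4, 142 and 158 CPM (lowest, median, highest) in naive, 105, 133 and 157 in demyelination, 99.9, 128 and 138 in remyelination and 122, 145 and 217 in knockout libraries. Vamp2 had 90.2, 102 and 121 CPM in naive, 93.0, 117 and 155 in demyelination, 96.9, 132 and 135 in remyelination and 93.8, 135 and 159 in knockout libraries. The ranges of both genes overlapped in all 4 comparisons. Vamp2 was above the naive median in 6 of 7 remyelination libraries (0.28, SE 0.12, edgeR adjusted p = 0.355), and Vamp1 was above the control median in 6 of 7 knockout libraries (0.32, SE 0.12, adjusted p = 0.564). The highest Vamp1 value, 217 CPM, was in knockout library 1, and without it the estimate was 0.21.

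Stx1a, the syntaxin of the neuronal plasma membrane, was the least abundant member. Its levels were 18.8, 26.4 and 27.8 CPM in naive, 14.4, 19.0 and 31.1 in demyelination, 13.8, 26.4 and 31.5 in remyelination and 20.6, 27.4 and 62.8 in knockout libraries (lowest, median, highest). The value of 62.8 was again in knockout library 1, and the estimate in knockout against control moved from 0.31 (SE 0.20, edgeR adjusted p = 0.742) to 0.08 without it. Cplx1 and Cplx2, the complexins, had group means of 527 to 663 and 226 to 261 CPM, and their largest estimate was 0.22 (SE 0.13, adjusted p = 0.713) for Cplx1 in knockout against control.

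**Figure D3:**
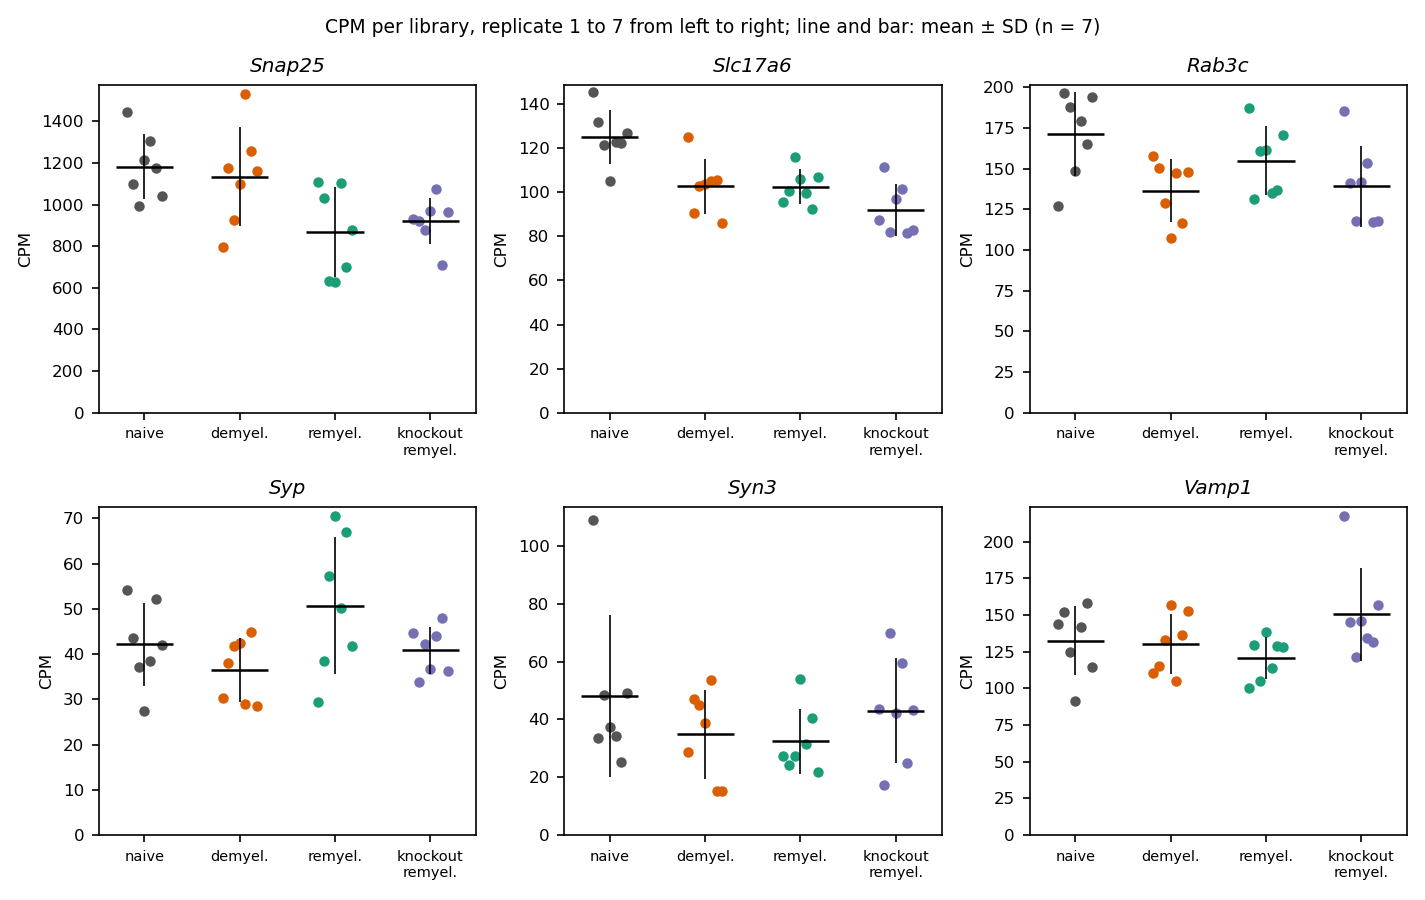
CPM of 6 members in each library (points, replicates 1 to 7 from left to right) with the group mean and SD (line and bar, n = 7), on linear axes from 0. Snap25 averages 1182 CPM in naive and 869.5 CPM in remyelination libraries, with its highest library (1531 CPM) in demyelination, Slc17a6 averages highest in the naive group, Rab3c is lower in demyelination than in naive libraries with overlap, and single high libraries stand out for Syn3 (naive 1, 109 CPM) and Vamp1 (knockout 1, 217 CPM).

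In the group of Rab3 proteins and active-zone scaffolds, Rab3a, the main vesicle GTPase, was the most abundant. It had 506, 569.9 and 651 CPM (lowest, median, highest) in naive, 488, 634 and 705 in demyelination, 447, 658 and 778 in remyelination and 629, 729.7 and 839.8 in knockout libraries. Knockout libraries were above the control median in 6 of 7, with an estimate of 0.21 (SE 0.10, edgeR adjusted p = 0.662). Its paralog Rab3c had 127, 179 and 197 CPM in naive, 107, 147 and 158 in demyelination, 132, 161 and 188 in remyelination and 117, 141 and 185 in knockout libraries. All 7 demyelination libraries lay below the naive median (-0.33, SE 0.11, adjusted p = 0.142). The call was made in 2 of 22 alternatives: with the mitochondrial share as a covariate (-0.36, adjusted p = 0.0181), and without naive library 1 and knockout library 1 (-0.39, adjusted p = 0.0337). Over all 22 the adjusted p ranged from 0.0181 to 0.359.

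Bsn encodes Bassoon, the giant scaffold of the active zone. It had 64.8, 76.8 and 105 CPM in naive, 64.7, 102 and 146 in demyelination, 67.6, 101 and 117 in remyelination and 62.2, 88.6 and 109 in knockout libraries (lowest, median, highest). In 6 of 7 demyelination libraries it was above the naive median (0.30, SE 0.15, edgeR adjusted p = 0.359), and the ranges overlapped. Its partner Pclo (Piccolo) stood at 410.1 ± 20.4 CPM in naive and 375 ± 22.5 in demyelination libraries (-0.13, SE 0.08, adjusted p = 0.520). Rims1 and Rims2, which bind Rab3 and calcium channels, had group means of 287 to 323 and 179 to 215 CPM. Unc13a, the Munc13 priming factor, had group means of 43.6 to 49.1 CPM.

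Nsf, the ATPase that dismantles spent SNARE complexes, varied little between libraries. It had 618, 631 and 725 CPM in naive, 609, 679 and 741 in demyelination, 621, 667 and 685 in remyelination and 691, 694 and 728 in knockout libraries (lowest, median, highest). The knockout range lay wholly above that of its control, the single case among the 36 genes in the 4 comparisons. Ranges were apart for 0.129% of all genes in that comparison, and for 1.38% in demyelination against naive, 0.628% in remyelination against naive and 0.322% in remyelination against demyelination. The difference was small, 699 ± 13.3 against 656 ± 25.5 CPM, and the test that shares the spread over genes did not call it (0.09, SE 0.07, edgeR adjusted p = 0.798). Napb, its SNAP adaptor in neurons, had group means of 547 to 580.4 CPM.

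The vesicular transporters load transmitter and mark the transmitter type of the neuron. Slc17a6 (VGLUT2, identifier ENSMUSG00000030500.7) is typical of glutamatergic neurons in thalamus, hypothalamus and brainstem, and Slc17a7 (VGLUT1, ENSMUSG00000070570.6) of those in cortex, hippocampus and cerebellar granule cells. Slc17a6 levels were 105, 123 and 146 CPM in naive, 86.1, 104 and 125 in demyelination, 92.6, 100.4 and 116 in remyelination and 81.4, 87.6 and 112 in knockout libraries (lowest, median, highest). All 7 remyelination libraries and 6 of 7 demyelination libraries lay below the naive median. The estimates were -0.28 (SE 0.10, edgeR adjusted p = 0.140) in demyelination and -0.29 (SE 0.10, adjusted p = 0.202) in remyelination, each against the same naive libraries, and -0.15 (SE 0.10, adjusted p = 0.744) in knockout against control.

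Slc17a7 had 91.6, 134 and 149.5 CPM in naive, 92.6, 127 and 159 in demyelination, 119, 153 and 175 in remyelination and 98.4, 142 and 184 in knockout libraries (lowest, median, highest). In remyelination 6 of 7 libraries were above the naive median (0.22, SE 0.12, edgeR adjusted p = 0.532) and 6 of 7 above the demyelination median (0.26, SE 0.12, adjusted p = 0.709). Slc32a1, which loads GABA and glycine, stood at 68.4 ± 9.47 in naive, 77.2 ± 5.19 in demyelination, 75.8 ± 9.23 in remyelination and 72.3 ± 10.5 in knockout libraries. All 7 demyelination libraries exceeded its naive median, with an estimate of 0.17 (SE 0.11, adjusted p = 0.541).

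Membrane retrieval was represented by Amph, Dnm1 and Bin1. Amph (amphiphysin) had 141, 176 and 219 CPM in naive, 171, 201 and 234 in demyelination, 154, 191 and 219 in remyelination and 174, 207 and 255 in knockout libraries (lowest, median, highest), and its estimates ran from -0.05 to 0.14. Dnm1, the neuronal dynamin, had group means of 172 to 208 CPM with a coefficient of variation of up to 28.7%. Bin1, which oligodendrocytes also express, stood between 187 and 190.0 CPM in all 4 group means, with estimates between -0.02 and 0.02, although oligodendrocyte genes fell in the same demyelination libraries.

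Ratios of paralogs within a library need no library size, and 3 pairs used by different neurons were compared. The test was an exact permutation test over all 3432 splits of 7 against 7, with adjustment over the 12 tests. Members and comparisons were chosen with earlier results of these data known, for which the adjustment does not account. The log2 ratio of Slc17a6 to Slc17a7 counts fell in remyelination against naive. It had a lowest, median and highest value of -0.49, -0.04 and 0.42 in naive, -0.63, -0.37 and 0.18 in demyelination, -0.92, -0.52 and -0.31 in remyelination, and -1.17, -0.66 and -0.17 in knockout libraries. All 7 remyelination libraries lay below the naive median, with a small overlap of the ranges. The means were -0.56 ± 0.19 in remyelination and -0.04 ± 0.28 in naive, a difference of -0.51 (two-sided exact permutation p = 0.00175, adjusted p = 0.0210). It was -0.50 with the mitochondrial share taken out, and between -0.59 and -0.44 when each library was left out in turn (adjusted p between 0.00699 and 0.0490). With replicate numbers as a block, the sign-flip test gave an adjusted p of 0.188, the smallest it can give for a single ratio among 12.

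The same ratio differed by -0.25 in demyelination against naive (exact permutation, adjusted p = 0.337) and by -0.27 in remyelination against demyelination (adjusted p = 0.319). In knockout against control in remyelination, the difference was -0.06 (exact permutation, adjusted p = 0.743), with knockout libraries at -0.61 ± 0.36. Whether the fall differed between demyelination and remyelination is the test of the latter pair, which did not pass. Neither gene alone passed the edgeR test in remyelination, so the unequal change shows in the ratio and does not say which gene moved.

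Lists of regional neurons were looked at beside this ratio. Of 8 thalamic genes, 3 had estimates above 0 and 5 below in demyelination against naive (median -0.08) and 4 lay on each side in remyelination against naive (median -0.03). In these comparisons 1 and 0 of them passed. The 1 was Ntng1, a netrin of thalamic relay neurons, which fell in demyelination against naive, from 166 ± 7.89 to 130.0 ± 14.5 CPM (-0.36, SE 0.09, edgeR adjusted p = 0.0257). It stood at 141 ± 19.5 in remyelination libraries (-0.25, SE 0.09, adjusted p = 0.276). The summed thalamic level was 414 to 625 CPM in demyelination, 436 to 568 CPM in remyelination and 474 to 560.5 CPM in naive libraries. Of 11 cortical and hippocampal genes tested, 0 passed in any comparison, with sums of 1000.4 to 1166 CPM in remyelination and 955 to 1220.2 CPM in naive libraries. Of 12 cerebellar genes tested, 0 passed, though 8 had an unadjusted p under 0.05 and a lower level in remyelination against naive, as did 672 of all 12423 genes, with a list median of -0.36. Of 8 hindbrain genes 3 were tested, and 1 passed, in remyelination against naive (list median -1.45). It was Hoxa5, which fell from 4.97 ± 4.58 to 0.480 ± 0.591 CPM (-3.37, SE 0.84, edgeR adjusted p = 0.0418). Its remyelination mean lay below the level of 3 counts. Glra1, the most abundant, had -0.43 (SE 0.24, adjusted p = 0.561). In demyelination against naive and in remyelination against demyelination 0 passed (list medians -0.10 and -1.65). The part of regional make-up of the tissue in the ratio was not tested.

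The log2 ratio of Vamp1 to Vamp2 had a median of 0.29 in naive, 0.10 in demyelination, -0.04 in remyelination and 0.02 in knockout libraries. Its difference in remyelination against naive, -0.40, had an exact permutation p of 0.0216 and an adjusted p of 0.129. Without naive library 4 the difference passed, at -0.50 (exact permutation, adjusted p = 0.0105). The Syt2 to Syt1 ratio differed by at most 0.12 in size in the 4 comparisons (exact permutation, adjusted p of 0.606 or more).

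**Figure D4:**
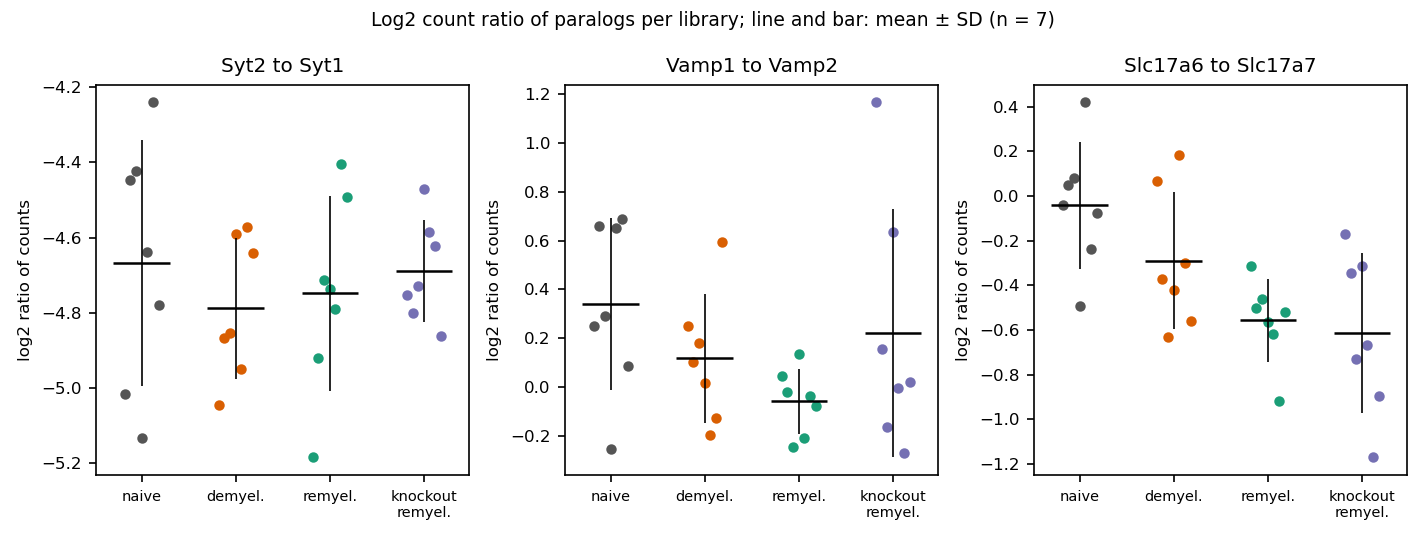
Log2 ratio of counts of 3 paralog pairs in each library (points, replicates 1 to 7 from left to right) with the group mean and SD (line and bar, n = 7). The Slc17a6 to Slc17a7 ratio averages -0.04 in naive and -0.56 in remyelination libraries, while the Syt2 to Syt1 ratio overlaps across all groups.

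Beyond the 36 genes, 97 further presynaptic genes in 4 lists gave the same count: 0 of the 93 tested passed in any comparison. They comprised 48 genes of release (44 tested), 23 of vesicle retrieval, 16 of the vesicle proton pump and 10 of presynaptic calcium channels. At an unadjusted p under 0.05 there were 3 higher and 6 lower in demyelination against naive, 5 and 6 in remyelination against naive, 1 and 0 in remyelination against demyelination, and 5 and 1 in knockout against control. In the same order, 13.3, 10.4, 6.65 and 7.49% of all genes had such a p in either direction. Their median log2 fold changes were -0.04, 0.02, 0.04 and 0.03. In the lists of retrieval, the pump and the channels the most abundant gene was Synj1 (synaptojanin, which uncoats endocytic vesicles), Atp6v1a (a catalytic subunit of the pump) and Cacna2d1 (a channel subunit), respectively. Their naive means were 509.7 ± 14.6, 975 ± 66.5 and 219 ± 33.5 CPM, and their estimates lay between -0.21 and 0.11.

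The nearest to a call among these were Cacnb4, a calcium channel beta subunit (-0.41, SE 0.13, edgeR adjusted p = 0.0757 in demyelination, and -0.44, SE 0.12, adjusted p = 0.0945 in remyelination, each against naive). Syt13 was next (0.25, SE 0.09, adjusted p = 0.144 and 0.31, SE 0.09, adjusted p = 0.0792), followed by Unc13c, the Munc13 of cerebellar granule cells (-0.30, SE 0.10, adjusted p = 0.0980 and -0.29, SE 0.10, adjusted p = 0.192). Since both comparisons use the naive libraries, the paired values are not independent. On the other side of the synapse, 0 of 24 postsynaptic genes passed, and 0 of 11 genes of inhibitory neurons passed. In demyelination against naive, 0 postsynaptic genes were higher and 6 lower at an unadjusted edgeR p under 0.05 (list median -0.15). Over all genes 13.3% had such a p in either direction. The postsynaptic counts were 0 and 1 in remyelination against naive, 2 and 0 in remyelination against demyelination, and 1 and 1 in knockout against control.

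A further pattern in the members lay between libraries of the same group. Deviations of log2(CPM + 1) from the group mean were correlated with the deviation of the library's mitochondrial share over all 28 libraries, with p-values from 100000 shuffles within groups, adjusted over 12423 genes. The comparison was chosen after the values had been seen. The share of the most abundant gene is a part of the same library total. In the demyelination, remyelination and knockout groups, though not in naive, the library with the highest mitochondrial share had the lowest share of that gene. The members were not set against the latter share, so relations to these shares were not separated. For 16 of 36 members Pearson's r passed (14 negative and 2 positive), where 13.4% of all genes did, 6.89% with a negative and 6.50% with a positive r. By Spearman's rho 18 members passed, against 11.1% of genes. The median size of r was 0.48 over the members and 0.27 over all genes. The members are well-counted genes, and they were not set against genes of like level. The part of expression level in these differences from all genes was therefore not tested.

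Syn2 followed the share most closely, with r = -0.87 and rho = -0.83 (permutation p = 1e-05 for both, the smallest 100000 shuffles can give, adjusted p = 0.00116 and 0.00148), and r was -0.78 without remyelination library 1 and knockout library 1, the pair farthest from the median share. Slc17a7 had r = -0.83 and rho = -0.82 (permutation, adjusted p = 0.00116 and 0.00148), and Rab3a had r = -0.78 and rho = -0.79 (adjusted p = 0.00116 and 0.00264). Without those 2 libraries they stood at -0.76 and -0.79. Going the other way were Syt4, with r = 0.71 and rho = 0.63 (permutation, adjusted p = 0.00116 and 0.00864), and Rab3c, with r = 0.70 and rho = 0.63 (adjusted p = 0.00332 and 0.0170), at 0.60 and 0.58 without the pair. The sign of r was the same without the pair for 34 of 36 members. Napb and Rims1, which passed by r, stood at -0.47 and -0.38 without it, so their relation rests in part on those libraries.

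Slc17a6 showed no such relation (r = 0.09, rho = 0.06, permutation, adjusted p = 0.833 and 0.886), unlike its paralog Slc17a7, and Snap25 had r = 0.28 and rho = 0.31 (adjusted p = 0.332 and 0.323). The group medians of the mitochondrial share were close, at 6.03% in naive, 6.00% in demyelination, 5.94% in remyelination and 5.53% in knockout libraries. Members with a GC-rich transcript tended to a negative r: across the 36 genes, transcript GC content and r had a Pearson correlation of -0.56 and a Spearman correlation of -0.43. Across 11369 genes with a transcript in the annotation both were -0.51. The transcript used was the longest protein-coding one of each gene. For the GC content of its last 500 bases, nearer to the 3′ tags, the members' correlations with r were weaker, at -0.36 (Pearson) and -0.23 (Spearman). Genes of the same libraries are not independent points, so these are given without a p. Syt4 and Rab3c had transcript GC contents of 40.7 and 41.9%, below the member median of 52.1%, and Slc17a7 had 58.5% where Slc17a6 had 42.9%. What links the share, GC content and these levels was not tested.

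Some members also moved with each other within groups. Over 630 pairs the median r of the deviations was 0.15, with 21 pairs over 0.7 and 7 under -0.7. Pairs of all genes were not counted in the same way, so these numbers do not set the list apart. The tightest pairs were Syn1 with Cplx1 (r = 0.86, rho = 0.86), Cplx1 with Dnm1 (0.85, 0.79) and Syn1 with Dnm1 (0.84, 0.82), and Stx1a joined them (r = 0.76 with both Syn1 and Cplx1, rho = 0.83 and 0.81). These 4 span synapsin, complexin, dynamin and syntaxin and so belong to different steps of the cycle. At the other end, Rab3c moved against Amph (r = -0.81, rho = -0.79) and Syngr3 (r = -0.79, rho = -0.82), and Syt4 against Rab3a (r = -0.80, rho = -0.72). The pairs were picked by their values and share the 28 libraries, their depth and their scaling, so no p is given. Without remyelination library 1 and knockout library 1, r was 0.83 for Syn1 with Cplx1 and -0.76 for Rab3c with Amph. The promoter windows of the former pair, printed above, share none of the 4 motifs, and that of Dnm1 held no match.

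**Figure D5:**
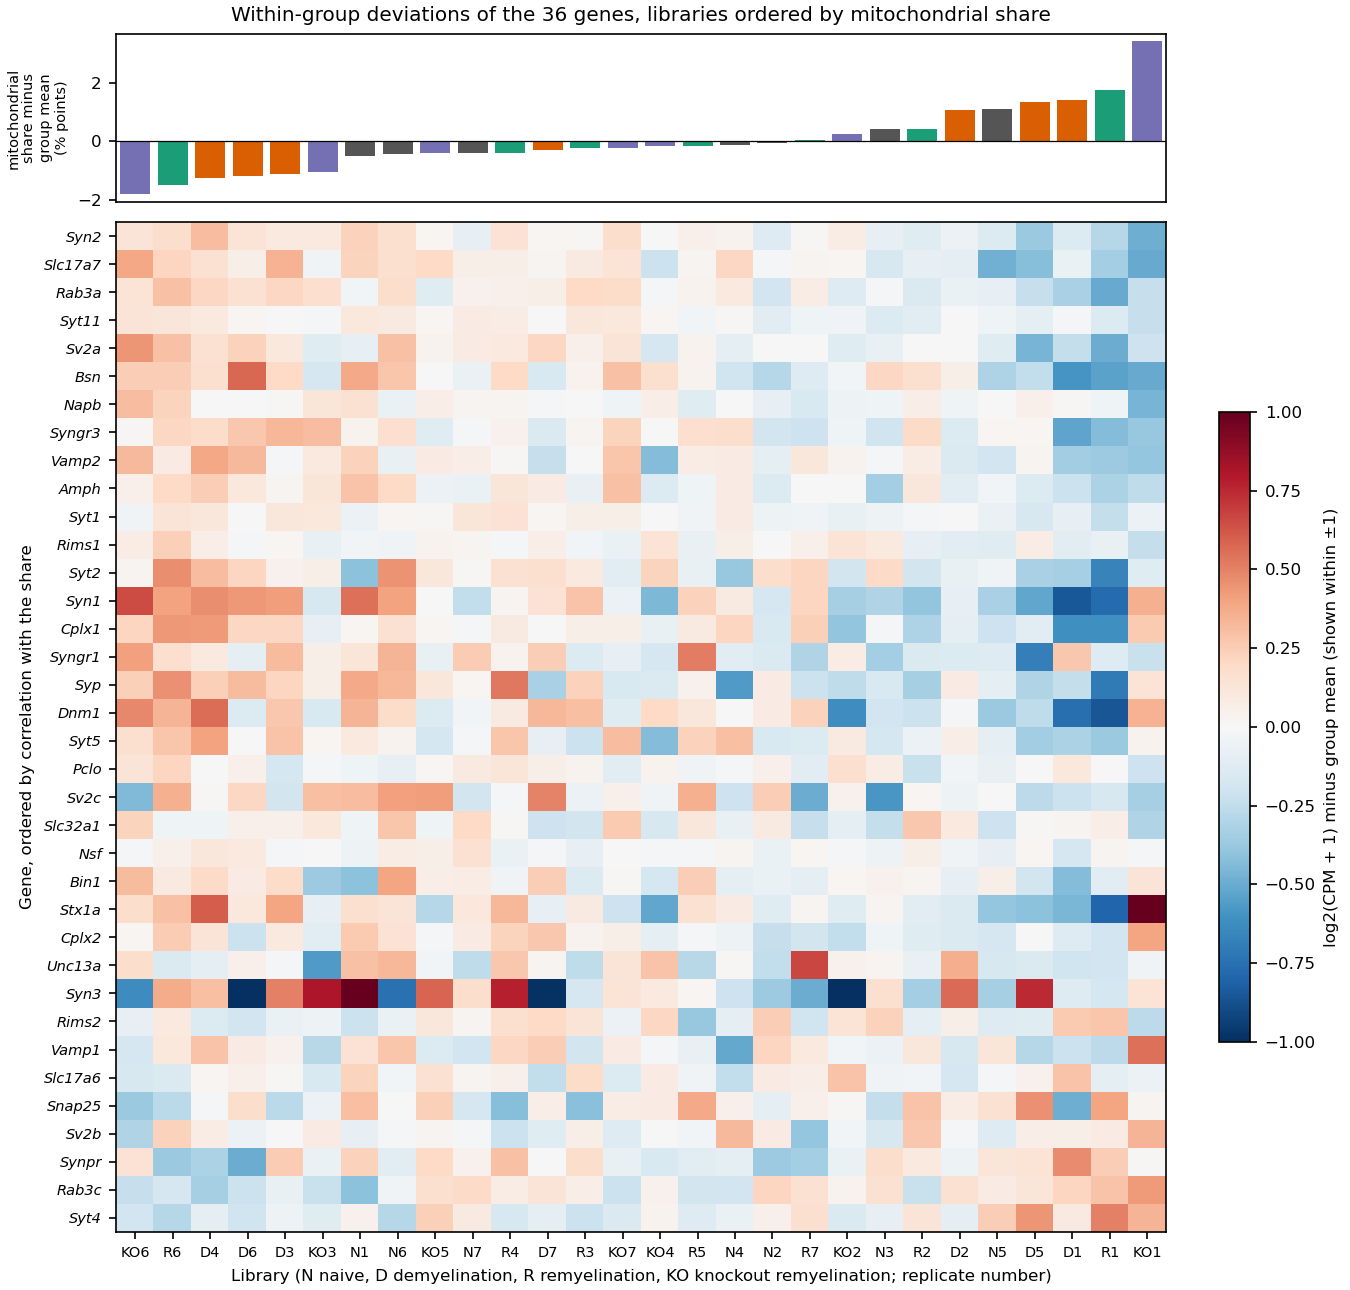
Upper panel, mitochondrial share of each library minus its group mean in percentage points, with 28 libraries ordered by it; lower panel, log2(CPM + 1) minus the group mean of each of the 36 genes, ordered by its correlation with that share (color shown within ±1). Genes at the top such as Syn2 (r = -0.87) turn from red to blue as the share rises, and Rab3c and Syt4 at the bottom (r = 0.70 and 0.71) turn the other way.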

How the data were processed

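Whole-brain RNA of 28 samples was sequenced with the QuantSeq 3′ forward kit, per the labels' protocols. The authors deposited a table of RSEM gene results per library, and the expected counts in it are estimates of reads per gene that need not be whole and are not normalised, per the file headers. Per the submitters' processing notes, RSEM, STAR, edgeR, cutadapt and FastQC were used with the build GRCm39. What version or setting each had, how strand was handled and which annotation served was not given in the sources used here. TPM and FPKM columns, also deposited, divide by a length that 3′ tags do not need and were not used.

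Expected counts (96.59 to 97.69% whole within 0.005) were rounded. Symbols came from GENCODE M21 on GRCm38 by identifier, so no coordinates of the tables' build are given. Replicates were compared by a chi-square test, whose smallest value per degree of freedom was 2.58, and no library was counted as a duplicate. Counts were scaled by TMM, filtered with filterByExpr and tested with the edgeR 4.0.16 quasi-likelihood test in R 4.3.3, in a single fit of 4 group means over 28 libraries, with Benjamini-Hochberg adjustment over 12423 genes and a threshold of 0.05. The biological coefficient of variation was 19.5%. In simulated data for demyelination against naive, run on 12233 genes, 21.6% of changes of 0.5 and 69.4% of changes of 1 (log2) were called. Ratios used counts plus 0.5 and exact permutation. The alternatives were DESeq2 1.42.0, its size factors in edgeR, library totals, no filter, a replicate block, the mitochondrial share as a covariate, leaving out the most abundant gene, naive 1 with knockout 1, or each library in turn, and a pseudocount of 2 for ratios. Taking the mitochondrial share out of ratios was added after seeing the data.

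The members, lists and comparisons were chosen with earlier results of these data known. Members whose values are given by library are those called, the most abundant of each role, the 3 with the largest change in each comparison and the genes of the ratios. Others are given where they help to describe a role. From every other list the most abundant gene and up to 3 called genes per comparison and direction were to be named, and lists of other cells and regions are given mainly by counts. The most abundant gene of the list of further release genes is not reported here. Besides those named with the results, lists of striatum (7 tested), hypothalamus (4), olfactory bulb (6), oligodendrocyte precursors (8), vessels (9) and mitochondrial transcripts (13) had 0 genes called in any comparison.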

Additional observations from a re-analysis of the deposited data

Results flagged for a closer look

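In 11 of the 156 sets of 7 libraries looked at (each member and ratio in each group), the highest or lowest library stood farther from the others than Dixon's 95% critical ratio allows; chance gives about 1 in 20. Knockout library 1, which has the highest mitochondrial share and the lowest share of the most abundant gene, accounts for 4: Syn2 at 648 CPM (the other 6 between 911 and 1026), Vamp1 at 217 (122 to 156), Stx1a at 62.8 (20.6 to 34.0) and Cplx2 at 341 (218 to 270.4). Syn2 was low in this library and the other 3 genes were high in it. Naive library 1, with the highest share of the most abundant gene, had Syn3 at 109 CPM (25.4 to 49.0). Remyelination library 1 had Vamp2 at 96.9 (125 to 135), and it has the highest mitochondrial share of its group. The remaining 5 were in libraries that stood out in no other member: Syt4 at 309 in demyelination library 5 (198 to 243), Unc13a at 56.1 in demyelination library 2 (37.5 to 45.0), Rims1 at 336 in remyelination library 6 (269.8 to 296), Syngr1 at 56.9 in knockout library 6 (36.2 to 44.8) and Nsf at 728 in knockout library 5 (691 to 699.7).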

How the results depend on the processing

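Members called stayed at 0 in remyelination against demyelination and in knockout against control under all alternatives run. In demyelination against naive the count was 1 (Rab3c) with the mitochondrial share as a covariate and 1 without naive 1 and knockout 1, and 0 under each single library left out. In remyelination against naive it was 1 (Snap25) with no filter (-0.43, edgeR adjusted p = 0.0399), 1 with the replicate block (-0.46, adjusted p = 0.0275), 1 with the mitochondrial share as a covariate (-0.45, adjusted p = 0.0460), and between 0 and 1 when each library was left out. The cause was not tested. Over all genes, the covariate gave 445 calls in demyelination against naive (249 without) and 175 in remyelination against naive (78 without); for the latter DESeq2 gave 130, no filter 122, the replicate block 147 and single libraries left out 57 to 154, the highest without remyelination 1. DESeq2 gave 73 in remyelination against demyelination (48 in edgeR) and 11 in knockout against control (6), where no filter gave 28.

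The replicate block with 7 pairs left the Slc17a6 to Slc17a7 difference in remyelination against naive at -0.51, but its adjusted p of 0.188 is the smallest that a single ratio among 12 can have. Samples share only a number: the deviations of same-numbered libraries correlated by over 0.1 in 5 of 28 pairs, and in 8 of 28 exceeded the best correlation with another number. The difference in the same ratio in knockout against control turned to 0.0054 with the mitochondrial share taken out, and lay between -0.13 and 0.036 with single libraries left out. Under the latter, Syt2 to Syt1 lay between -0.017 and 0.11 in remyelination against demyelination and between -0.013 and 0.12 in knockout against control, and Vamp1 to Vamp2 between -0.50 and -0.34 in remyelination against naive. Depth limits the members with few counts: Stx1a, Syn3, Syngr1 and Syp have the fewest tags and Syn3 the widest intervals.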
